A study of Homo sapiens with 12 samples.

Results

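The genes of cholesterol and fatty acid synthesis described here are 33 of the 38516 genes in a deposited RNA sequencing table. They were chosen by name, with results of these data in view: the list was drawn up around the near absence of DHCR7 in one of the cell lines, so the levels by line below are a description and carry no test. The study sequenced total RNA of KYSE150 and KYSE510 cells, which are established human lines from squamous carcinoma of the esophagus, grown in RPMI-1640 with fetal bovine serum. Each line had 3 control libraries and 3 libraries of cells in which HCP5, a long non-coding RNA gene, was silenced. Titles in all 4 groups start with the letters sh, left unexplained by the labels, and no other allele, agent or time is given. The replicate number is the last digit of the title, and the labels do not say whether replicates were separate cultures, so p-values measure the spread between these libraries, which may be technical.

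Cells build cholesterol from acetyl units through mevalonate, squalene and a series of sterol intermediates, and fatty acids from the same acetyl units through malonyl units. Both routes are switched on by SREBP transcription factors. These proteins are held in the endoplasmic reticulum with the escort SCAP while INSIG proteins sense enough sterol, and move to the Golgi to be cleaved when sterol falls. The processed factors bind sterol regulatory elements, usually beside a CCAAT box bound by NF-Y, in the promoters of many synthesis genes, while the export genes ABCA1 and ABCG1 answer to liver X receptors. Squamous epithelium uses the products for membranes and for the lipids of its surface layers.

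By role, the 33 genes hold 7 of the mevalonate steps, 11 of the squalene and sterol steps, 5 of sensing and transport, 8 of fatty acid and lipid synthesis and 2 of sterol export. Levels are RPKM, reads scaled to exon length in kilobases and to the assigned reads of the library. The length is summed over all annotated exons, and some exon bases are shared with other genes, so comparisons between genes are approximate. Of the 33 genes, 31 reached 0.5 RPKM in 3 or more libraries and were tested. The export genes ABCA1 and ABCG1 did not. Depth ran from 20035025 to 28202422 reads per library, and all silenced KYSE150 libraries were deeper than the controls of that line. All 9 listed markers of squamous epithelium, KRT5 and TP63 among them, were at 0.5 RPKM or more in every library. No listed marker of fibroblasts, endothelium, hepatocytes or adipocytes was, though the endothelial gene CDH5 reached 2.03 RPKM in KYSE510. Of the leukocyte markers CD68 alone was, while PTPRC did not exceed 0.00566 RPKM. HCP5 itself rested on 26 to 56 reads in KYSE150 and 38 to 147 in KYSE510. With silencing its log2 value changed by -0.45 in the first line and -0.53 in the second, each with an SE of 0.20, and limma adjusted p-values were 0.267 and 0.646. The mean of both lines was -0.49 (SE 0.14), with 0.185 as its limma adjusted p and 0.0295 when the replicate number was a block. A voom fit of recovered reads gave -0.85 and -0.80 in the lines.

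RefSeq promoter windows of 300 bases on GRCh38.p14 were matched by symbol for 28 of the 33 genes, with 39 windows in all. ACAT2, FDFT1, SQLE, FASN and ABCG1 had no entry. The word CCAAT, read on both strands, occurred in 24 of the 39 windows (61.5%) and in 20 of the 28 genes, against 34.6% of all 35116 windows of the same length. The word TCACNCCAC, the core of a sterol regulatory element, occurred in 1 window (2.56%), that of SREBF2, against 1.13% of all windows. MVK and NSDHL held the most copies of CCAAT, 5 each. PMVK and CYP51A1 held 0, as did LPIN1, SCAP, ELOVL6, ABCA1, FADS1 and SREBF1. A match describes the letters of the window only. The windows of DHCR7 are shown because this gene differed most between the lines. That of PMVK is shown because it alone of the list was called after silencing, and only in the fit with a replicate block. Those of MVK and NSDHL are shown for their copies of CCAAT, and that of SREBF2 for its sterol regulatory element. Each reads 5′ to 3′ on the strand of the gene, with CCAAT (or ATTGG, the same word on the opposite strand) and TCACNCCAC in capitals.

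DHCR7, first window, chr11:71448344-71448643, minus strand: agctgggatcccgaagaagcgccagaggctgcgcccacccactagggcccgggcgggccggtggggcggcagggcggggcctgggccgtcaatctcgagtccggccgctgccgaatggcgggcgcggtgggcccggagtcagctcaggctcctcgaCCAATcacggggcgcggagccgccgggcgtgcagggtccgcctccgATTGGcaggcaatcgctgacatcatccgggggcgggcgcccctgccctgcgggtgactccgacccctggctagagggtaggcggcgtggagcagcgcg
DHCR7, second window, chr11:71448994-71449293, minus strand: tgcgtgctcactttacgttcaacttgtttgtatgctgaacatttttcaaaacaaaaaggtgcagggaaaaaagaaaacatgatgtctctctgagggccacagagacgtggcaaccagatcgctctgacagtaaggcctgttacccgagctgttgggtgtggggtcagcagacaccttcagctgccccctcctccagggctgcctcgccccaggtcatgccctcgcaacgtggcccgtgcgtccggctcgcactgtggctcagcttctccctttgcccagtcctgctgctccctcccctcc
PMVK, chr1:154936670-154936969, minus strand: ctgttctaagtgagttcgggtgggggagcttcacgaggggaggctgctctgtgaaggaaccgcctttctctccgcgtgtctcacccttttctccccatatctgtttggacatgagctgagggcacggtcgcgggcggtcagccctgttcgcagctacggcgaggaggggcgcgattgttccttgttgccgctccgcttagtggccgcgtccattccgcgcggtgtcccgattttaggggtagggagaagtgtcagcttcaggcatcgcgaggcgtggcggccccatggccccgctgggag
MVK, chr12:109573544-109573843, plus strand: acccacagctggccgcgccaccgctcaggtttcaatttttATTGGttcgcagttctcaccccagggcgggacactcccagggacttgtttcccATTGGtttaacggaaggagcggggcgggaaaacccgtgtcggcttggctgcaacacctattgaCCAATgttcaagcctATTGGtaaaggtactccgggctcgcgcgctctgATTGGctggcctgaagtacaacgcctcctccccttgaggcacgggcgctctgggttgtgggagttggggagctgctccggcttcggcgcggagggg
NSDHL, chrX:152830813-152831112, plus strand: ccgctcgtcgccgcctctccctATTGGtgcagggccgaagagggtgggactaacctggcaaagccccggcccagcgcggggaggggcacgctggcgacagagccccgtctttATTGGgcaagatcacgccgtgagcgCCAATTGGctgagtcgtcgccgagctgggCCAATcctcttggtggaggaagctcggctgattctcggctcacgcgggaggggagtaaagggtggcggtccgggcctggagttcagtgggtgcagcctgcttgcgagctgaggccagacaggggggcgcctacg
SREBF2, chr22:41832855-41833154, plus strand: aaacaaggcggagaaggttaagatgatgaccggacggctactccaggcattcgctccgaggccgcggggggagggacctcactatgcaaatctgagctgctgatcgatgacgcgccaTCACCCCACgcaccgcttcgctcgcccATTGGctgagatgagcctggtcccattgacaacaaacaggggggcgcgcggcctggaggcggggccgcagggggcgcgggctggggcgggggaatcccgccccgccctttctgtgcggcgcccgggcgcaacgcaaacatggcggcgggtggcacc

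The first DHCR7 window held 2 copies of CCAAT and was rich in CpG, with 36 such pairs and 75.0% G and C. The second held 0 copies, 12 CpG pairs and 57.0% G and C. In NSDHL the words on opposite strands overlap at a single place, which counts as 2 copies.

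The lines were apart in most of these genes. Across the 31 genes tested, KYSE510 controls exceeded KYSE150 controls by a median of 0.80 on the log2(RPKM + 0.5) scale, while the median over all 17823 genes tested was -0.07. On this scale the difference of a low gene is understated. All 6 KYSE510 libraries lay above all 6 KYSE150 libraries in 18 of the 31 genes, all 6 lay below in 2 (EBP and CYP51A1), and the ranges overlapped in 11. The share of genes with separate ranges was 64.5%, beside 50.9% of all genes tested and 57.1% of 35 other genes of the pathway that passed the same filter. By direction, KYSE510 lay above in 3812 of all 17823 genes tested and below in 5265. In the 35 other genes of the pathway it lay above in 15 and below in 5. This contrast was the one in view when the genes were chosen.

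**Figure D1:**
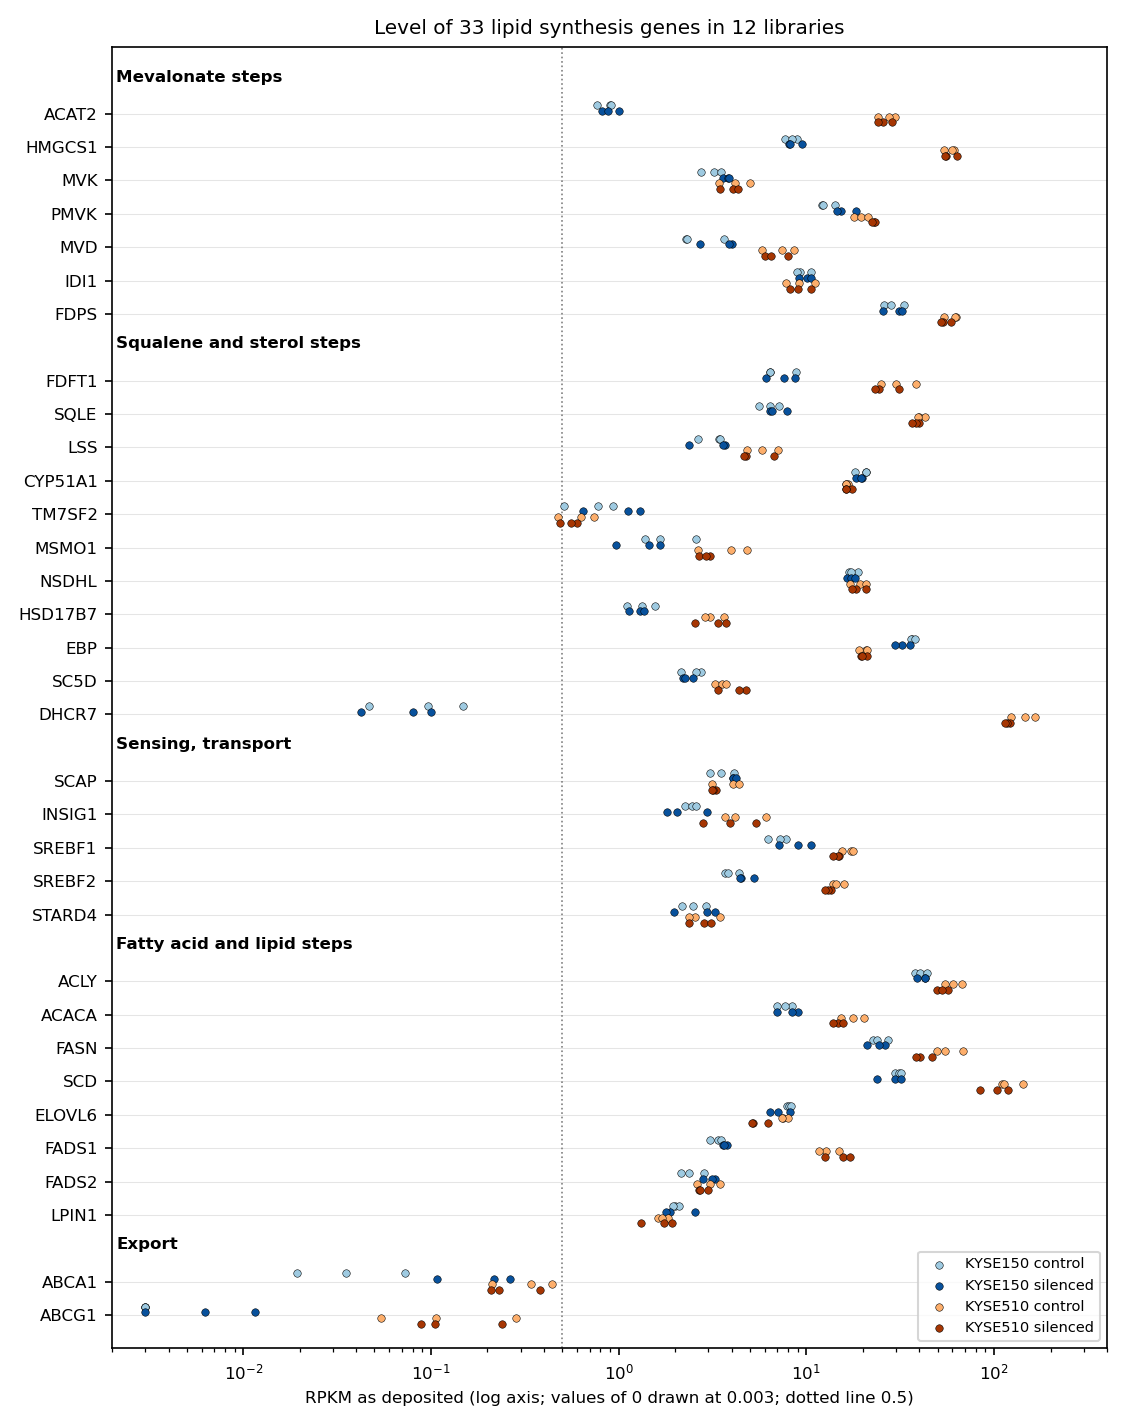
Level of each of the 33 genes in the 12 libraries, in RPKM on a log axis, by role, with 1 point per library and colours for line and treatment. DHCR7 spans 0.0426 to 0.148 in KYSE150 and 115 to 166 in KYSE510, while IDI1, NSDHL and STARD4 overlap between the lines.

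DHCR7, the reductase of the last step to cholesterol in the Kandutsch-Russell route, stood the third among all 17823 genes tested by its excess in KYSE510 controls. It lies on the minus strand of chromosome 11 at 71428193 to 71452868 (GRCh38), with 4160 exon bases. In KYSE150 it had 0.0960, 0.0468 and 0.148 RPKM in controls and 0.101, 0.0426 and 0.0802 in silenced libraries, replicates 1 to 3. In KYSE510 it had 123, 166 and 147 RPKM in controls and 122, 118 and 115 in silenced libraries. No library of either line came near the other line. The KYSE150 values rest on 4 to 14 reads per library, 51 in all, against 80952 in KYSE510. The highest upper bound of an exact 95% Poisson interval in KYSE150 was 0.249 RPKM, which covers counting error only. Control means were 0.0970 ± 0.0507 and 145 ± 21.7 RPKM (SD, n = 3), a ratio of 1498, and the log2 difference was 7.92 (SE 0.11).

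The levels of the nearest tested genes on each side, by start position, are given beside those of DHCR7. NADSYN1, which makes NAD and lies 0.241 kb away on the opposite strand, had 1.17 to 1.80 RPKM in KYSE150 and 15.6 to 19.2 in KYSE510, a ratio of control means of 12.8. RP11-660L16.2, a transcript within the span of DHCR7 on the opposite strand, had 0 to 0.0734 RPKM in KYSE150 and 16.7 to 23.4 in KYSE510. It begins just beyond the upper end of the first promoter window printed above and spans the second. No exon base of DHCR7 in the table was shared with another gene.

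On the other side the picture was mixed. SHANK2, a scaffold gene of synapses whose end lies 176 kb away, had 0.859 to 1.89 RPKM in KYSE150 and 0.0362 to 0.0737 in KYSE510, the opposite order. CTTN, the gene of the actin-binding protein cortactin, had 105 to 117 RPKM in KYSE150 and 545 to 687 in KYSE510, and lies 992 kb away. DHCR7, its neighbours on the NADSYN1 side and CTTN were therefore all higher in KYSE510, by different ratios, and SHANK2 was lower. DHCR7 and RP11-660L16.2 passed the filter on low values only through KYSE510, and SHANK2 only through KYSE150. A difference between lines was thus built into their being tested.

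**Figure D2:**
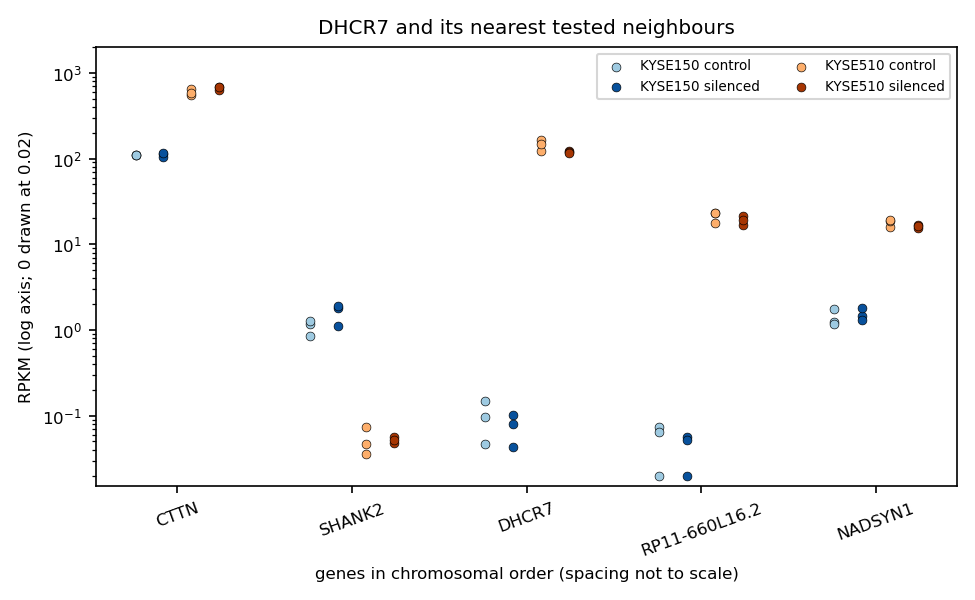
RPKM, on a log axis, of DHCR7 and the 2 nearest tested genes on each side in chromosomal order, 1 point per library. DHCR7, RP11-660L16.2, NADSYN1 and CTTN are higher in every KYSE510 library than in any KYSE150 library, and SHANK2 is lower in every one.

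Among the mevalonate steps, the early enzymes differed most between lines. ACAT2, the cytosolic thiolase that joins acetyl units, had 0.894, 0.770 and 0.912 RPKM in KYSE150 controls, 0.814, 0.882 and 1.01 in KYSE150 silenced libraries, 29.5, 27.7 and 24.1 in KYSE510 controls and 25.6, 28.6 and 24.0 in KYSE510 silenced libraries. Its control means differed by a ratio of 31.6 and by 4.34 on the log2 scale (SE 0.10), and the 6 KYSE150 libraries held 550 reads in all. SOD2 and TCP1, both transcribed the other way, cover 43.0% and 9.23% of the exon bases of ACAT2, and without strand in the counting some of its reads could be theirs.

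HMGCS1, the synthase of the next step, had 8.90, 7.69 and 8.42 RPKM in KYSE150 controls, 8.12, 8.15 and 9.51 in KYSE150 silenced libraries, 53.9, 61.5 and 59.8 in KYSE510 controls and 55.7, 63.8 and 54.7 in KYSE510 silenced libraries. The log2 difference between control lines was 2.74 (SE 0.09), and 15.0% of its exon bases are shared with a gene on the opposite strand.

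The later mevalonate steps showed smaller differences. MVD, the decarboxylase, was 1.27 higher on the log2 scale in KYSE510 controls (SE 0.20) and FDPS, the farnesyl diphosphate synthase, 1.03 higher (SE 0.11), with the lines apart in all 12 libraries for each. The kinases PMVK and MVK were 0.59 (SE 0.10) and 0.35 (SE 0.13) higher, and their ranges over all 12 libraries overlapped between lines. IDI1, the isomerase, had 8.92 to 10.6 RPKM in KYSE150 and 7.77 to 11.1 in KYSE510, a difference of -0.05 (SE 0.13). FDPS and IDI1 share 18.6% and 17.9% of their exon bases with RUSC1-AS1 and IDI2-AS1 on the opposite strand.

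Of the squalene and sterol steps, SQLE and FDFT1 differed most after DHCR7. SQLE, the squalene monooxygenase, had 6.40, 5.57 and 7.18 RPKM in KYSE150 controls, 6.38, 6.56 and 7.86 in KYSE150 silenced libraries, 39.8, 42.7 and 39.4 in KYSE510 controls and 39.6, 38.6 and 36.7 in KYSE510 silenced libraries. FDFT1, the squalene synthase, had 6.40, 6.38 and 8.76 in KYSE150 controls, 6.06, 7.61 and 8.74 in KYSE150 silenced libraries, 24.9, 38.5 and 30.0 in KYSE510 controls and 24.4, 31.3 and 23.1 in KYSE510 silenced libraries. The log2 differences between control lines were 2.59 (SE 0.10) for SQLE and 2.03 (SE 0.19) for FDFT1, and the lines did not overlap in either gene.

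The steps from lanosterol onward went in both directions. HSD17B7, MSMO1, LSS and SC5D were 1.01, 0.87, 0.80 and 0.43 higher on the log2 scale in KYSE510 controls, with SEs from 0.12 to 0.22. NSDHL, a dehydrogenase of the demethylation steps, had 16.6 to 18.8 RPKM in KYSE150 and 17.1 to 20.9 in KYSE510, and TM7SF2, a sterol reductase, 0.513 to 1.30 and 0.476 to 0.743. EBP, the sterol isomerase, was lower in KYSE510, at 29.7 to 38.1 RPKM in KYSE150 and 19.1 to 21.1 in KYSE510, a log2 difference of -0.85 (SE 0.08). CYP51A1, the lanosterol demethylase, was lower by a smaller margin, at 18.2 to 20.8 and 16.2 to 17.6 RPKM. LRRD1, read in the same direction, covers 78.8% of its exon bases, so which reads belong to CYP51A1 is uncertain.

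Of the genes of sensing and transport, the transcription factor genes were apart and their partners were not. SREBF2, which encodes the factor that mainly drives cholesterol genes, had 3.70 to 5.26 RPKM in KYSE150 and 12.6 to 15.8 in KYSE510, a log2 difference of 1.77 between controls (SE 0.09). SREBF1, whose products mainly drive fatty acid genes, had 6.26 to 10.5 and 13.9 to 17.8 RPKM, a difference of 1.19 (SE 0.13). SCAP had 3.05 to 4.21 RPKM in KYSE150 and 3.13 to 4.38 in KYSE510, and STARD4, a carrier of sterol, 1.97 to 3.24 and 2.36 to 3.46, with differences of 0.10 (SE 0.12) and 0.11 (SE 0.18). INSIG1 was 0.78 higher (SE 0.22), but its lowest KYSE510 library, at 2.83 RPKM, lay below its highest KYSE150 library, at 2.94.

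Of the genes of fatty acid and lipid synthesis, SCD, the desaturase that makes monounsaturated chains, differed most. It had 29.7, 31.3 and 32.0 RPKM in KYSE150 controls, 23.9, 29.6 and 31.9 in KYSE150 silenced libraries, 110, 144 and 113 in KYSE510 controls and 104, 118 and 84.2 in KYSE510 silenced libraries, with a log2 difference of 1.96 between control lines (SE 0.15). FADS1, the delta-5 desaturase, was 1.83 higher in KYSE510 controls (SE 0.12), while its neighbour FADS2 was 0.26 higher (SE 0.11). FASN, ACACA and ACLY, which encode the fatty acid synthase, the acetyl-CoA carboxylase and the citrate lyase ahead of them, were 1.20, 1.15 and 0.57 higher. ELOVL6, an elongase, and LPIN1, a phosphatidate phosphatase, were at -0.08 (SE 0.10) and -0.18 (SE 0.13), with overlapping ranges.

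The export genes were low in both lines. ABCA1, which loads cholesterol onto apolipoprotein, had 5 to 84 reads per library in KYSE150 and 57 to 126 in KYSE510. ABCG1, which passes sterol to high-density lipoprotein, had 3 reads over all 6 KYSE150 libraries and 130 over the KYSE510 libraries. No fold was computed for ABCG1.

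Other genes of the pathway, 40 by list and 35 past the filter, had a median difference between control lines of 0.18 on the log2 scale. These genes and those of the list were all chosen with the line contrast known.

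**Figure D3:**
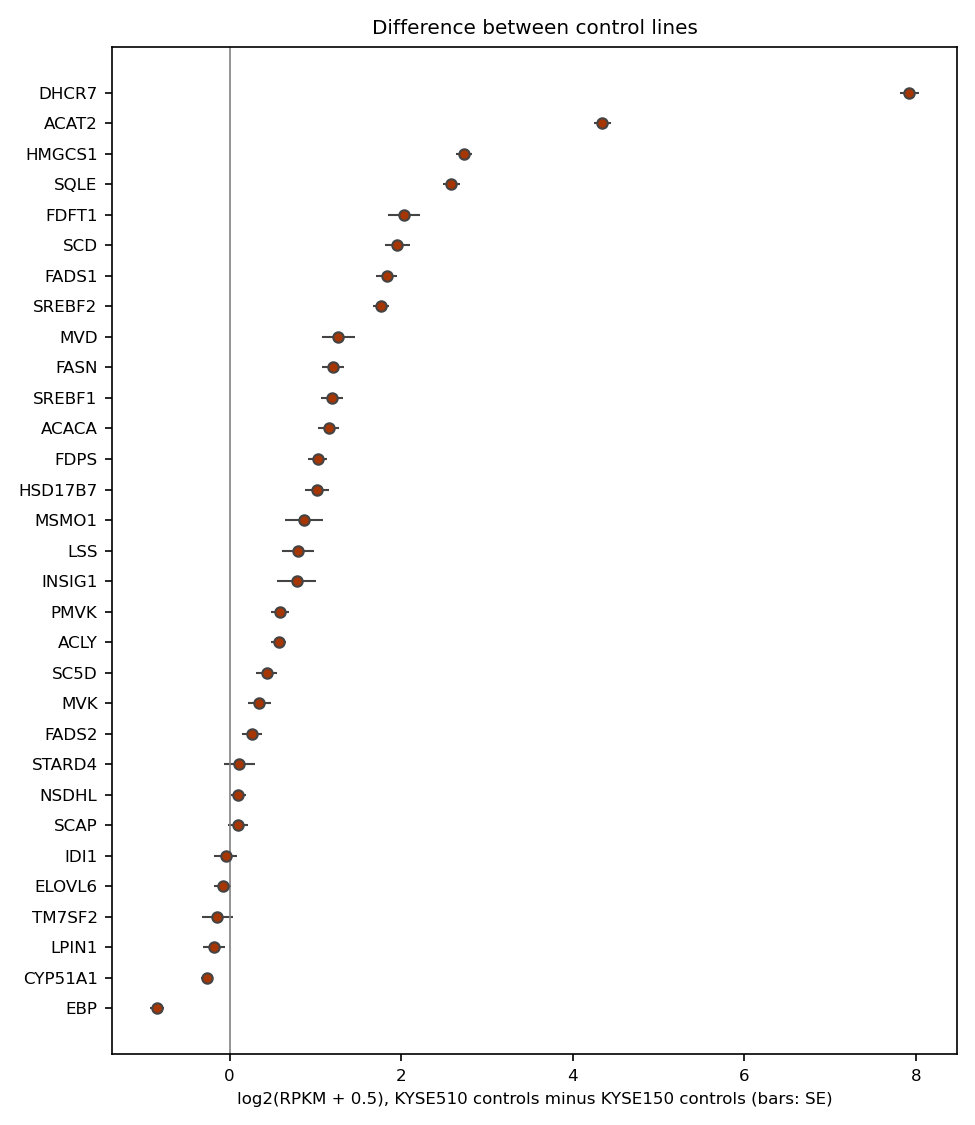
Difference of each tested gene between control lines on the log2(RPKM + 0.5) scale, KYSE510 minus KYSE150, with bars for the SE. DHCR7 at 7.92 and ACAT2 at 4.34 lead the list, IDI1 lies near 0, and EBP at -0.85 is the lowest.

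After silencing of HCP5, PMVK was the only gene of the list to pass the test in any fit. It passed only with the replicate number as a block, where 6.7% of all genes passed in KYSE150 and 2.74% in the mean over lines. In the limma fit of all genes without a block, 0 of the 31 passed an adjusted p of 0.05 in either line, in the mean over lines or in the difference between lines. The background of calls was low too: 0.499% of all genes in KYSE150 (89 genes), 0.0393% in KYSE510 (7 genes), 0.539% in the mean over lines (96 genes) and 0% in the difference (0 genes). SEs of single genes ran from 0.07 to 0.22 on the log2 scale in each line, and the lowest limma adjusted p-values among the 31 were 0.17 in KYSE150, 0.265 in KYSE510, 0.113 in the mean and 0.394 in the difference. A voom fit of the reads recovered from the RPKM also called 0 of the 31 in each line, with 0.718% of all genes called in KYSE150 and 0.0281% in KYSE510. With the replicate number as a block, 1 of the 31 passed in KYSE150 and in the mean over lines, PMVK in each, and 0 in KYSE510 and in the difference. The blocked fit called 6.7% of all genes in KYSE150, 0.112% in KYSE510, 2.74% in the mean and 0% in the difference.

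PMVK, the phosphomevalonate kinase, was the only gene of the list higher in every silenced library than in every control in both lines. Among the other pathway genes GPAM did the same. The share of all genes that did so in both lines was not counted. In single lines it was 13.7% in KYSE150 and 5.22% in KYSE510. PMVK had 12.1, 12.3 and 14.2 RPKM in KYSE150 controls and 15.2, 14.7 and 18.5 in silenced libraries. In KYSE510 it had 17.9, 19.5 and 21.3 RPKM in controls and 22.8, 23.4 and 22.3 in silenced libraries. It follows that PMVK was higher in the silenced library of all 6 same-numbered pairs. So were FADS1 and, of the other pathway genes, SCD5 and GPAM. The share of all genes higher in all 6 pairs was not counted. In single lines, 37.4% of all genes in KYSE150 and 16% in KYSE510 were higher in 3 of 3 pairs. The log2 change of PMVK in KYSE150 was 0.31 (SE 0.10). The limma adjusted p was 0.17 without and 0.0452 with the block, and ran from 0.0452 to 0.505 over all fits. The mean of both lines was 0.27 (SE 0.07), and its limma adjusted p was 0.16 without and 0.0401 with the block, and from 0.0401 to 0.337 over all fits. In KYSE510 alone it was 0.22 (SE 0.10), with 0.799 without and 0.251 with the block. After centring of each library on its median gene, the change in KYSE150 was 0.18.

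The direction of the genes is given by counts and medians, beside all genes. In KYSE150 the median log2 change of the 31 genes was 0.04, with 20 above 0 (64.5%) and 11 below, and that of all genes was 0.08, with 66.1% above 0. In KYSE510 it was -0.09, with 5 above 0 and 26 below (83.9%), and that of all genes was -0.02, with 56.7% below 0. After centring, the medians were -0.09 for the list and -0.05 for all genes in KYSE150, and -0.06 and 0.00 in KYSE510, so the sign of the KYSE150 median depends on the scaling. The median difference of the changes between lines was -0.13 for the list and -0.12 for all genes.

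By role, all 7 mevalonate genes were above 0 in KYSE150 with a median of 0.06 (-0.07 after centring), and 1 of 7, PMVK, was above 0 in KYSE510, where the median was -0.06 (-0.03 after centring). The sterol genes had medians of -0.04 in KYSE150 (4 of 11 above 0) and -0.08 in KYSE510 (3 of 11). The 5 genes of sensing and transport had a median of 0.19 in KYSE150, with 4 above 0, and of -0.19 in KYSE510, with 0 above 0. After centring these were 0.06 and -0.16. The 8 genes of fatty acid and lipid synthesis had medians of 0.03 in KYSE150 (-0.10 after centring) and -0.22 in KYSE510 (-0.20 after centring), where FADS1 alone was above 0.

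**Figure D4:**
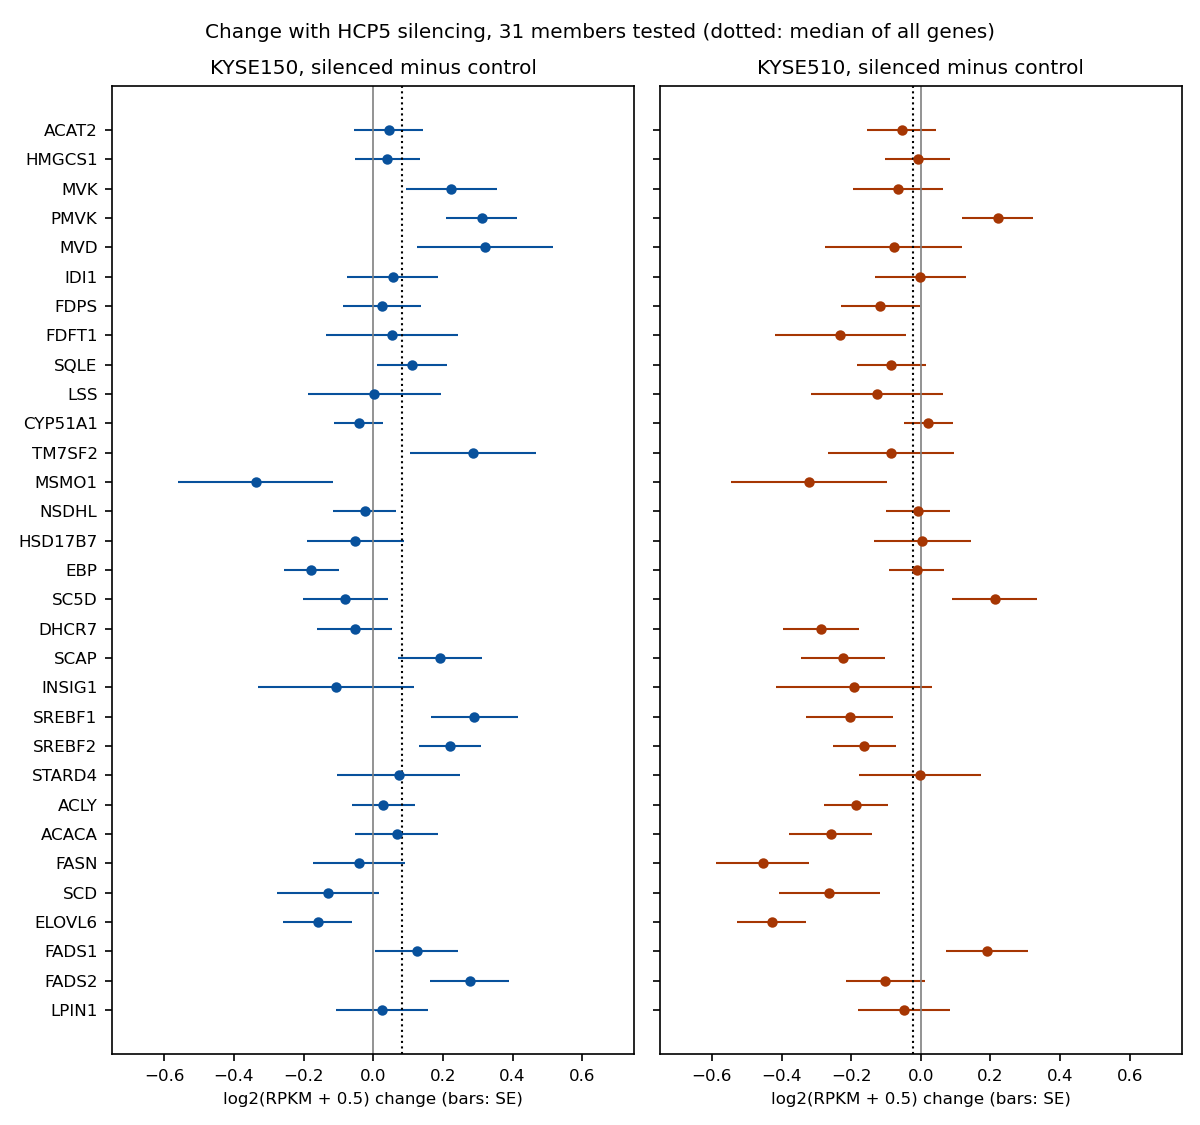
Change of each tested gene with silencing on the log2(RPKM + 0.5) scale, silenced minus control, in each line, with bars for the SE and a dotted line at the median of all genes. In KYSE510, 26 of 31 points lie below 0, and in KYSE150 20 lie above 0, beside a median of all genes of 0.08.

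At an unadjusted p under 0.05 the limma fit had 4 genes higher and 1 lower in KYSE150, where 18.1% of all genes had such a p, and 0 higher and 3 lower in KYSE510, where 6.35% had. In the mean over lines 1 was higher and 3 were lower (11.5% of all genes), and 5 differed in their change between lines (12.2% of all genes). Silenced libraries lay above every control in 4 of the 31 genes in KYSE150 (13.7% of all genes) and below in 1 (5.47%). In KYSE510 they lay above in 1 (5.22%) and below in 5 (6.87%). The silenced library was higher in 3 of 3 same-numbered pairs in 9 of the 31 genes in KYSE150 (37.4% of all genes) and lower in 3 (13.7%). In KYSE510 it was higher in 2 (16%) and lower in 12 (21.8%). FASN, ELOVL6, SREBF1, SREBF2, SCAP, EBP, MVK, FADS1 and FADS2, described next, were picked after these values were seen, and none of them, nor DHCR7, passed the adjusted threshold in any fit run.

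In KYSE510 FASN, ELOVL6 and DHCR7 were the genes of the list that lay lower at an unadjusted p under 0.05. MSMO1, at -0.32 with an SE of 0.22, was further from 0 than DHCR7 but did not reach that p. FASN had 49.6, 68.7 and 55.0 RPKM in controls and 40.4, 46.6 and 38.4 in silenced libraries, a log2 change of -0.45 (SE 0.13; limma adjusted p 0.44 without and 0.0994 with the block). ELOVL6 had 7.51, 7.95 and 7.40 RPKM in controls and 6.28, 5.21 and 5.16 in silenced libraries, which is -0.43 on the log2 scale (SE 0.10; 0.265 without and 0.12 with the block). Neither gene overlapped between the groups.

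In KYSE150 the means of FASN were 24.6 ± 2.45 RPKM in controls and 24.0 ± 2.74 after silencing, and those of ELOVL6 were 8.09 ± 0.233 and 7.23 ± 0.898 (SD, n = 3), or -0.04 (SE 0.13) and -0.16 (SE 0.10) on the log2 scale. ELOVL6 was lower in the silenced library of all 6 same-numbered pairs. So were SCD and, of the other pathway genes, LBR and NR1H2. The share of all genes lower in all 6 pairs was not counted. In single lines, 13.7% of all genes in KYSE150 and 21.8% in KYSE510 were lower in 3 of 3 pairs. The mean of ELOVL6 over lines, -0.29 (SE 0.07), had limma adjusted p-values of 0.113 without and 0.0547 with the block. DHCR7 changed by -0.29 (SE 0.11) in KYSE510, with all silenced libraries below all controls and a limma adjusted p of 0.653. In KYSE150 its read numbers are too low for a change of this size to be detectable.

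The genes of the SREBP factors leaned in opposite directions in the lines. SREBF2 had 3.70, 3.83 and 4.40 RPKM in KYSE150 controls and 4.47, 4.43 and 5.26 in silenced libraries, and 13.9, 15.8 and 14.4 in KYSE510 controls and 13.6, 13.1 and 12.6 in silenced libraries. All silenced libraries thus lay above the controls in KYSE150 and below them in KYSE510. SREBF1 had 6.26, 7.77 and 7.29 RPKM in KYSE150 controls and 7.12, 10.5 and 8.98 in silenced libraries, and 15.6, 17.2 and 17.8 in KYSE510 controls and 15.0, 14.7 and 13.9 in silenced libraries.

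The difference of the changes, KYSE510 minus KYSE150, was -0.38 (SE 0.13) for SREBF2 and -0.50 (SE 0.18) for SREBF1, and limma gave each the same adjusted p, 0.394 without and 0.117 with the block. This test did not pass, and the median of all genes for the same quantity was -0.12. SCAP, FASN and FADS2 also had an unadjusted p under 0.05 for this difference, at -0.41, -0.41 and -0.38. After centring of each library these differences were smaller, at -0.23 for SREBF2, -0.34 for SREBF1, -0.26 for SCAP, -0.26 for FASN and -0.22 for FADS2, while the median of all genes was 0.04. In KYSE150 alone, the change of SREBF2 was 0.22 as deposited and 0.09 after centring, and that of SREBF1 was 0.29 and 0.16.

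In KYSE150 EBP was the single gene of the list whose silenced libraries all lay below the controls, with 36.5, 35.9 and 38.1 RPKM in controls and 32.3, 35.8 and 29.7 in silenced libraries. Silenced replicate 2 lay just under the lowest control, and the log2 change of -0.18 (SE 0.08) had a limma adjusted p of 0.267. After centring it was -0.31. MSMO1 lay lower, at -0.34, but with an SE of 0.22 and overlapping libraries. MVK and FADS1 lay higher in every silenced KYSE150 library than in every control, at 3.17 ± 0.388 and 3.77 ± 0.164 RPKM for MVK and 3.33 ± 0.229 and 3.67 ± 0.0898 for FADS1 (SD, n = 3), control first. FADS2 was 0.28 higher on the log2 scale in silenced KYSE150 libraries (SE 0.11; limma adjusted p 0.243 without and 0.0841 with the block), and 0.15 higher after centring.

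ABCA1, the exporter that sterol-sensing nuclear receptors induce, was below the filter and so outside these counts. In KYSE150 it had 0.0352, 0.0730 and 0.0194 RPKM in controls and 0.107, 0.262 and 0.216 in silenced libraries, all silenced values above all controls. In a limma fit with no filter its log2 change was 0.35 (SE 0.13), with an adjusted p of 0.32. In KYSE510 it had 0.212, 0.439 and 0.339 RPKM in controls and 0.209, 0.380 and 0.230 in silenced libraries, which overlapped. ABCG1 had 0 reads in every KYSE150 control and 0 to 2 in silenced libraries, which is too few for a comparison.

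The 35 other pathway genes past the filter are given the same way. In KYSE150 their median change was 0.06, with 28 of 35 above 0, and in KYSE510 it was -0.09, with 12 of 35 above 0. Limma called 0 of the 35 in each line, in the mean and in the difference. With the block MYLIP was called in KYSE150 and LBR in the mean over lines.

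MYLIP, a ubiquitin ligase that sterol-sensing nuclear receptors induce, had 1.22, 1.20 and 1.22 RPKM in KYSE150 controls and 1.84, 1.98 and 2.31 in silenced libraries. It was 0.57 higher on the log2 scale (SE 0.16), and its limma adjusted p was 0.135 without and 0.0492 with the block, and from 0.0492 to 0.414 over all fits. In KYSE510 it had 4.25, 6.73 and 6.40 RPKM in controls and 4.30, 5.61 and 3.87 in silenced libraries, which overlapped, and changed by -0.30 (SE 0.16).

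LBR, a nuclear membrane protein that also reduces sterols at the step TM7SF2 serves, had 6.997, 7.22 and 7.42 RPKM in KYSE150 controls and 6.20, 7.17 and 7.11 in silenced libraries. In KYSE510 it had 10.5, 14.0 and 13.8 RPKM in controls and 8.10, 8.97 and 9.61 in silenced libraries, with no overlap. Its change averaged over lines was -0.28 on the log2 scale (SE 0.08). The limma adjusted p was 0.178 in the fit without a block, 0.0356 with it and 0.0311 after centring, and ran up to 0.334 over all fits. TM7SF2 had means of 0.738 ± 0.211 RPKM in controls and 1.02 ± 0.337 after silencing in KYSE150, and of 0.616 ± 0.134 and 0.547 ± 0.0545 in KYSE510 (SD, n = 3), with overlapping values in each line.

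Replicates of KYSE510 differed in these genes as a group, a pattern noticed after the values were seen and given here as a description. In 20 of the 31 genes, HMGCS1, FDFT1, INSIG1, FASN and SCD among them, replicate 2 was the highest of the controls and also the highest of the silenced libraries, against 20.9% of all genes. In KYSE150 this held for 6 of the 31, against 10.6% of all genes. The median deviation of the 31 genes from their group mean, on the log2 scale, was 0.16 in KYSE510 control replicate 2 and 0.09 in silenced replicate 2, where the medians of all genes were 0.03 and 0.00. KYSE510 control replicate 1 lay at -0.13 for the list and -0.08 for all genes, and silenced replicate 3 at -0.08 and 0.02. Beside these shifts, the median change of the list with silencing in KYSE510 was -0.09. INSIG1 had 3.67, 6.08 and 4.19 RPKM in KYSE510 controls and 3.92, 5.38 and 2.83 in silenced libraries, replicates 1 to 3.

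**Figure D5:**
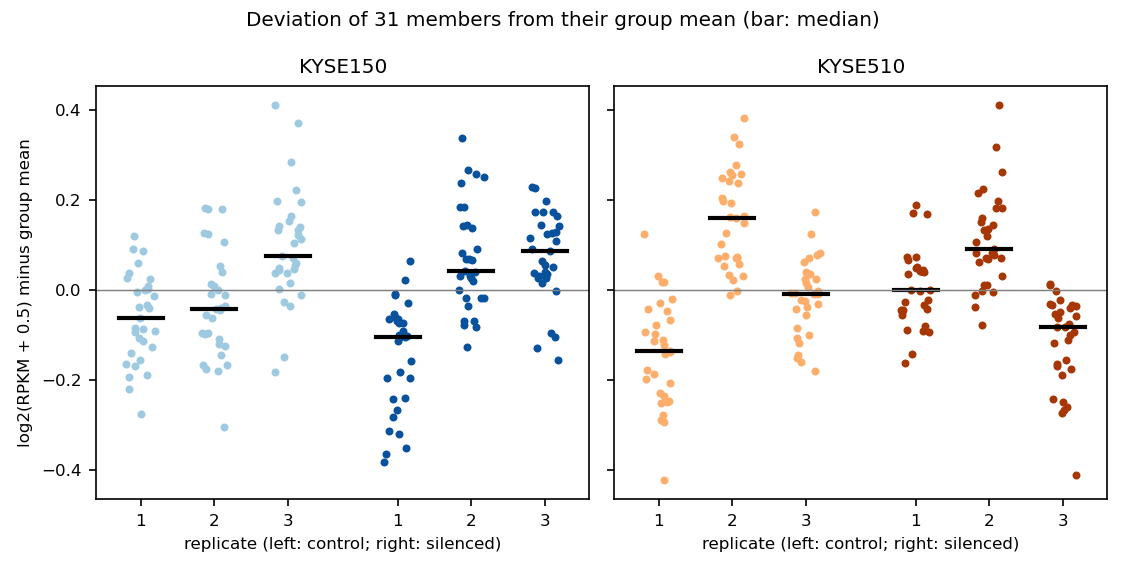
Deviation of each of the 31 tested genes from its group mean on the log2(RPKM + 0.5) scale, by line, treatment and replicate, with a bar at the median. In KYSE510 the median of replicate 2 lies at 0.16 in controls and 0.09 in silenced libraries, the highest of each group.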

How the data were processed

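RNA sequencing values of 12 libraries in 4 groups of 3 were used as deposited, in RPKM, which the authors scaled to summed exon length and to each library's assigned reads. Per the submitters' processing notes, GRCh38, HISAT2 and DESeq were used, with no role or version given. The columns of exon positions have featureCounts' form, per the file headers. The annotation release, use of strand and filters are not given in the sources used here, so reads of genes that overlap on opposite strands may be shared. In each library, 100% of values multiplied by gene length came out as whole reads within 0.02 of a read, which gave the reads behind each value.

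The 17823 genes that reached 0.5 RPKM in 3 or more libraries entered the test on log2(RPKM + 0.5) with limma 3.58.1 in R 4.3.3, with 4 group means over all 12 libraries, a mean-variance trend and 8 residual degrees of freedom. P-values were two-sided and adjusted by the Benjamini-Hochberg method over all genes tested, with a threshold of 0.05. The fit was tested on simulated data. Alternatives were pseudocounts of 1 and 0.1, no filter, centring of each library on its median, voom on recovered reads, the replicate block and leaving out each library. The block is the replicate number within a line (4 residual degrees of freedom). Across genes, the deviations from the group mean of a control library and the silenced library of the same number had r from 0.147 to 0.415 (6 pairs), and those of unlike numbers from -0.385 to 0.184, so the numbers were taken to pair libraries. These ranges overlap. In KYSE150, control replicate 2 had r of 0.184 with silenced replicate 1 and 0.147 with silenced replicate 2. The pairing comes from the digit in the titles.

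The 33 genes, the lists by role and the other pathway genes were chosen with earlier results of these data known. The naming rule took values in every library for DHCR7, for genes of the list past the threshold with or without the block, and for the 6 with the largest difference between control lines. It added other pathway genes past the threshold, the 2 nearest tested genes on each side of DHCR7, and HCP5. Some genes under the rule are not reported here.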

Additional observations from a re-analysis of the deposited data

How the results depend on the processing

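The replicate block assumes that libraries of the same number pair. With the block, 1 gene of the list passed in KYSE150 and 1 in the mean over lines, against 0 without it. This was PMVK in each, with limma adjusted p-values of 0.0452 and 0.0401. The block changed no other call of the list. In every other alternative and in all 12 fits that left out a library, 0 of the 31 genes passed in any silencing contrast, a range of 0 to 0. For the 17 changes of single genes at an unadjusted p under 0.05, 18 alternatives gave 306 values: 304 kept the direction and the side of the threshold, 2 came to pass it (PMVK, above) and 0 reversed. Part of these directions was fixed in advance. The block left every log2 change as it was, and leaving out a KYSE510 library could not move a change in KYSE150, nor the reverse. The 17 were also picked by their p in these data. Counts over all genes moved more. In KYSE150 the 89 became 1194 with the block, 15 without silenced replicate 3 of that line and 1287 without its control replicate 3. In KYSE510 the 7 became 20 with the block, 3 at a pseudocount of 0.1, 44 without the filter on low values and 2 in most fits without a library. In the mean over lines the 96 became 488 with the block and 43 without KYSE150 silenced replicate 2. In the difference between lines the 0 became 10 with no filter and 4 without KYSE150 control replicate 3. Among other pathway genes, NR1H2 passed after centring in KYSE150 (0.0446) and in the mean (0.026), and MID1IP1 in KYSE150 without control replicate 3 (0.04), in limma adjusted p-values. The causes were not tested. Depth limits DHCR7, ABCA1 and ABCG1 in KYSE150, with 51, 212 and 3 reads over 6 libraries.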
